A study of Homo sapiens with 17 samples.

Results

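Polyamine pathway mRNAs, several of them known for translational control, were followed in Ribo-STAMP data from RNA bound by the poly(A) binding proteins PABPC and PABPN. The set was chosen by gene symbol and held 8 genes, the antizymes OAZ1 and OAZ2, the antizyme inhibitor AZIN1, the synthesis enzymes ODC1, AMD1, SRM and SMS, and the acetyltransferase SAT1. All 8 were found among the 18869 genes of the table. In all 8, average TPM reached 5 in each IP, a filter passed by 9607 protein-coding genes (PCGs), which serve as the background throughout.

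Cells were HEK293T, an established human embryonic kidney line, carrying a doxycycline-inducible construct placed by lentiviral integration, so that the construct is expressed on top of the cells' own ribosomal protein genes. RPS2-STAMP fuses the C-to-U editing enzyme APOBEC1 to the small ribosomal subunit protein RPS2 and marks RNAs that ribosomes contact, and Control-STAMP is APOBEC1 alone. All groups shared induction with 50 ng/ml doxycycline for 24 h and crosslinking in 0.1% formaldehyde. For its total cell extracts, the study text describes dividing a single Input between the PABPC IP and the PABPN IP. Its account of the Ribo-STAMP samples does not repeat this. The 17 samples comprised 9 of RPS2-STAMP, with 3 each for Input, PABPC IP and PABPN IP, and 8 of Control-STAMP, with 3 for Input, 3 for PABPN IP and 2 for PABPC IP. The study text places the IPs in the cytoplasmic portion of the cells, whereas the sample labels mention no fractionation.

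Editing is given as normalized EPKM, the rate of edits per length of transcript and library size left after the control condition was subtracted. No division by the abundance of the gene's own RNA is described, and EPKM was higher in more abundant mRNAs, with an Input median of 0.0340 over the PCGs in the Input TPM decile of OAZ2, 0.0916 in that of AZIN1 and 0.177 in the highest decile. A ratio of EPKM between fractions is therefore not a ratio of editing per RNA molecule. Values "with PABPC" and "with PABPN" are those of the respective IP. Abundance is given as average TPM, which here adds exonic and intronic reads. The table holds 1 pooled value per gene and fraction, so no SD, n or test accompanies any value, and no difference between fractions could be set against the spread between replicates. The study's methods describe library size only for the STAMP libraries as a set, the reads and edits behind each gene's value are unknown, and the editing of Control-STAMP on its own was not analysed here. Of the HEK293T markers listed, the Input expressed LIN28B at a TPM of 37.7, IGF2BP1 at 106 and VIM at 184. PAX2, a kidney gene on the same list, stood at only 0.797. Of the markers of other cell types, the fibroblast gene COL1A1 had a TPM of 1.90 in the Input, and PTPRC, ALB and HBB were not among the genes of the table.

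Polyamines are small cations that bind RNA and ribosomes, and cells hold their level steady largely through translation. High polyamines promote a shift of reading frame on antizyme mRNA, and the antizyme made in this way binds ornithine decarboxylase and sends it to the proteasome. They also stall ribosomes on a short upstream reading frame of AMD1, repress AZIN1, and raise translation of SAT1. The cells here were grown under 1 condition, with polyamine levels neither altered nor measured.

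The sequence at which the antizyme reading frame shifts is shown for OAZ1 and OAZ2, since decoding of the whole antizyme depends on it. On hg38 the windows were chr19:2271413-2271473 on the plus strand for OAZ1 and chr15:64691485-64691545 on the minus strand for OAZ2, each of 61 bases within coding sequence. Capitals mark the last sense codon and the stop codon of the initial frame. The first base of that stop codon is the base skipped, at position 2271443 of chromosome 19 and 64691515 of chromosome 15. The annotation leaves it out of the transcript, as a gap between exons 2 and 3.
OAZ1: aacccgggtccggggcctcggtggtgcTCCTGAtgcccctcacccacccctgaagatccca
OAZ2: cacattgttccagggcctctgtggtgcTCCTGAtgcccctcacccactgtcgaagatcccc
The windows were identical at 49 of 61 bases, or 80.3%. The antizyme mRNAs differed in abundance and in where their editing was highest.

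OAZ1 (ENSG00000104904, chr19:2269509-2273490, plus strand), the main antizyme of most tissues, had a normalized EPKM of 0.430 in Input, 0.481 with PABPC and 0.121 with PABPN. Its TPM was 537 in Input, 1621 with PABPC and 653 with PABPN. Both its abundance and its EPKM were thus high, and both were higher with PABPC than with PABPN. The ratio of PABPC IP to PABPN IP was 3.98 for EPKM and 2.48 for TPM. The EPKM of OAZ1 lay above 98.1% of PCGs in Input, 99.3% with PABPC and 88.5% with PABPN. Of the PCGs in the highest decile of PABPC IP TPM, whose median EPKM was 0.134, 93.5% had a lower EPKM than OAZ1, but OAZ1 lay high in that decile by abundance too, with a TPM above that of 99.2% of all PCGs.

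OAZ2 (ENSG00000180304, chr15:64687573-64703281, minus strand), the less abundant antizyme, had an EPKM of 0.00876 in Input, 0.0958 with PABPC and 0.110 with PABPN. Its TPM was 18.6 in Input, 48.7 with PABPC and 26.7 with PABPN. Editing was therefore low in the Input and about level between the IPs, with a PABPN IP to PABPC IP ratio of 1.15. The PABPN IP value lay above 86.1% of all PCGs and above 91.8% of those in the same decile of PABPN IP TPM.

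AZIN1 (ENSG00000155096, chr8:102826111-102893864, minus strand) resembles ornithine decarboxylase, lacks its activity, and frees the enzyme by binding antizyme. Its EPKM was listed at 0 in the Input and was 0.0868 with PABPC and 0.0976 with PABPN. Its TPM was 63.0 in Input, 133 with PABPC and 101 with PABPN. For AZIN1, as for OAZ2, both IPs exceeded the Input and were about level, with the PABPN IP at 1.12 times the PABPC IP for AZIN1. Over PCGs the median EPKM was also higher in the IPs, at 0.0501 with PABPC and 0.0334 with PABPN against 0.0273 in Input. Of the PCGs in the same decile of Input TPM as AZIN1, 13.7% were also listed at 0 in the Input.

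**Figure D1:**
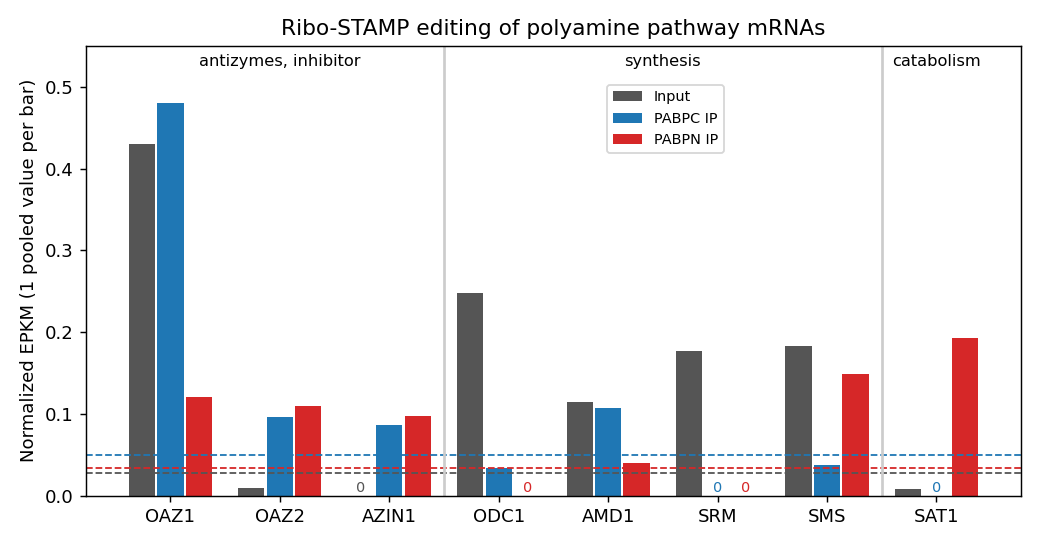
Normalized EPKM (vertical axis, 1 pooled value per bar, no error available) of the 8 polyamine pathway mRNAs in Input, PABPC IP and PABPN IP, grouped by role, with dashed lines at the PCG medians and a printed 0 where a gene is listed at 0. OAZ1 stands highest in the Input at 0.430 and the PABPC IP at 0.481, and SAT1 stands highest in the PABPN IP at 0.193.

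ODC1 (ENSG00000115758, chr2:10439968-10448327, minus strand) encodes ornithine decarboxylase, which makes putrescine in the rate-limiting step of the pathway. Its EPKM was 0.248 in Input, 0.0334 with PABPC and listed at 0 with PABPN. Its TPM was 363 in Input, 1042 with PABPC and 1816 with PABPN. The fraction richest in ODC1 RNA was thus the one with no editing listed. The PABPN IP TPM was above that of 99.8% of PCGs and 5.00 times the Input TPM. The EPKM in the Input was 7.43 times that in the PABPC IP, while the TPM in the PABPC IP was 2.87 times that in the Input. The median PCG also had a higher TPM in the IPs, at log2 ratios over Input of 1.10 with PABPN and 0.95 with PABPC. Relative to those medians, ODC1 lay at 1.22 with PABPN and 0.57 with PABPC on the log2 scale. Among the 961 PCGs in the highest decile of PABPN IP TPM, 220 (22.9%) were listed at 0 there, so ODC1 shared this state with many abundant mRNAs. SNORA80B, a small nucleolar RNA gene inside ODC1 on the same strand, had an EPKM of 0.142 in that fraction.

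AMD1 (ENSG00000123505, chr6:110874770-110898879, plus strand) encodes S-adenosylmethionine decarboxylase, which supplies the aminopropyl groups for spermidine and spermine. Its upstream reading frame is shown because polyamines act on ribosomes that decode it. On hg38 it lies at chr6:110874796-110874816 on the plus strand, within the 5′ UTR in exon 1, starts at position 12 of the transcript, and holds 6 codons before its stop. Capitals mark its start and stop codons.
AMD1: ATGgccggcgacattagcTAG
AMD1 had an EPKM of 0.115 in Input, 0.107 with PABPC and 0.0403 with PABPN. Its TPM was 85.6 in Input, 246 with PABPC and 212 with PABPN. The EPKM with PABPC was close to that of the Input and 2.66 times that with PABPN, with a TPM ratio of 1.16, the same order of IPs as for OAZ1 at lower levels. Within its deciles of TPM, AMD1 had a higher EPKM than 32.4% of PCGs in Input, 41.0% with PABPC and 39.0% with PABPN. These were the highest deciles, in which AMD1 lay toward the lower end in Input, with a TPM above that of 91.5% of all PCGs, and with PABPC, above 93.5%, and at about the middle with PABPN.

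SRM (ENSG00000116649, chr1:11054584-11060020, minus strand), spermidine synthase, had an EPKM of 0.176 in the Input and was listed at 0 in both IPs. Its TPM was 560.3 in Input, 1684 with PABPC and 758 with PABPN. SRM was the most abundant member in the Input and the PABPC IP by TPM, yet the only member whose editing was listed at 0 in both IPs. This state applied to 1 of 8 members and to 6.12% of PCGs. In a split chosen after the values were seen, 707 PCGs lay in the highest TPM decile of both IPs and 39 of them (5.52%) were listed at 0 in both. Among the 529 of these with an Input EPKM above 0.1, 14 (2.65%) were. Cytosines, the bases APOBEC1 edits, made up 35.2% of the SRM transcript, a share above that of 98.2% of PCGs. Whether base content bears on the values listed at 0 was not tested.

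SMS (ENSG00000102172, chrX:21940709-21994837, plus strand), spermine synthase, had an EPKM of 0.184 in Input, 0.0379 with PABPC and 0.148 with PABPN. Its TPM was 118 in Input, 298 with PABPC and 178 with PABPN. SMS had the opposite order of IPs to OAZ1 and AMD1, with an EPKM with PABPN 3.92 times that with PABPC, while its TPM was higher in the PABPC IP. The PABPN IP value was above that of 77.1% of PCGs in its decile of PABPN IP TPM, and the PABPC IP value was above that of 17.2% in its decile of PABPC IP TPM.

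SAT1 (ENSG00000130066, chrX:23783173-23786210, plus strand) encodes the acetyltransferase that starts polyamine breakdown and export. Its EPKM was 0.00863 in Input, listed at 0 with PABPC and 0.193 with PABPN. Its TPM was 5.08 in Input, 13.0 with PABPC and 30.4 with PABPN. SAT1 was the least abundant member in the Input and the PABPC IP, and its editing was listed almost wholly in the PABPN IP. There it exceeded 96.6% of all PCGs and 98.9% of those in the same decile of PABPN IP TPM. On the log2(EPKM + 0.01) scale, the difference of PABPC IP over PABPN IP was -4.34, and 0.448% of PCGs had a lower one. Its size depends on the pseudocount, since the PABPC IP value is 0, and it was -1.55 with 0.1 added. The number of reads behind these EPKM values, at a TPM this low, is unknown.

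**Figure D2:**
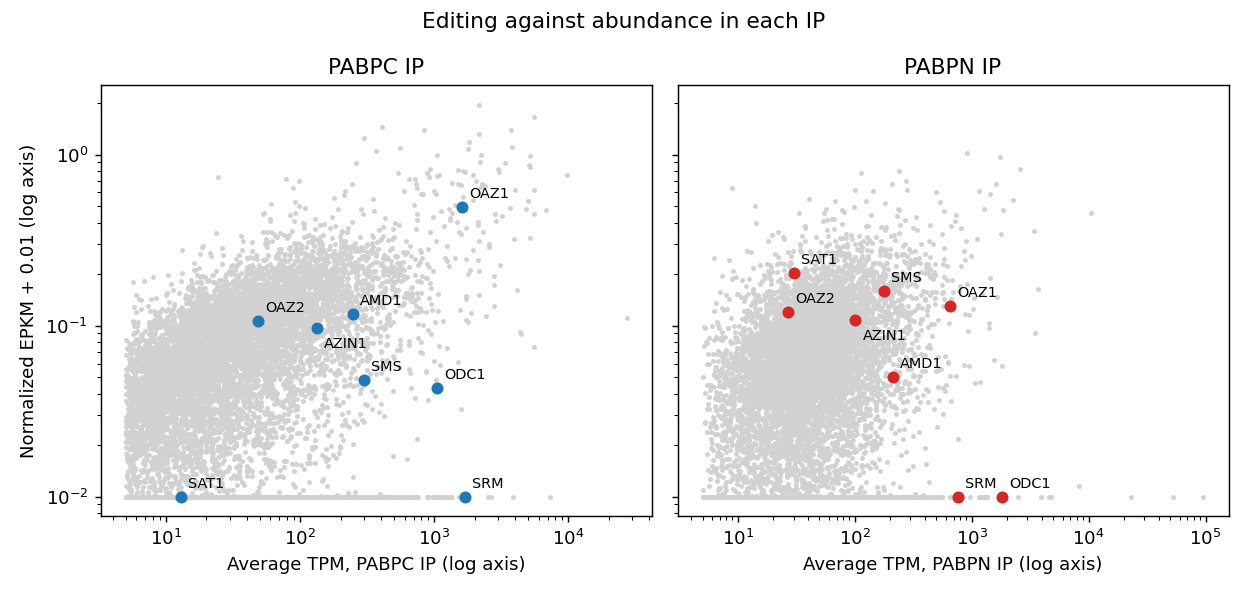
Normalized EPKM with 0.01 added (vertical log axis) against average TPM (horizontal log axis) in the PABPC IP and the PABPN IP, with 9607 PCGs in grey and the 8 members in colour. SRM and ODC1 sit on the floor of the PABPN IP panel at TPM of 758 and 1816, and SAT1 reaches 0.193 EPKM there at a TPM of 30.4.

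Counted over the 8 members, EPKM with PABPC exceeded that with PABPN for 3 (OAZ1, ODC1 and AMD1), against 56.4% of PCGs. The reverse held for 4 (OAZ2, AZIN1, SMS and SAT1), against 37.4% of PCGs. With at least a 2-fold difference required on the log2(EPKM + 0.01) scale, the 3 stayed, against 36.3% of PCGs, and the 4 became 2 (SMS and SAT1), against 21.1%. Editing was above 0 in the Input and both IPs for 4 members (OAZ1, OAZ2, AMD1 and SMS), against 50.5% of PCGs. The members therefore did not share a direction between the IPs. The highest of the 3 EPKM values was that of the Input for 4 members (ODC1, AMD1, SRM and SMS), against 26.6% of PCGs. It was that of the PABPC IP for OAZ1 alone, 1 of 8 against 42.6%, and that of the PABPN IP for 3 (OAZ2, AZIN1 and SAT1), against 28.7%. The 4 with the highest editing in the Input, AMD1 by a narrow margin, were the synthesis enzymes. They all lay in the highest decile of Input TPM, however, and in a split made after the values were seen, 547 of the 961 PCGs in that decile (56.9%) also had their highest EPKM in the Input.

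In the Input, 5 members (OAZ1, ODC1, AMD1, SRM and SMS) had an EPKM above the PCG median, against 50.0% of PCGs. When each was set against PCGs of its own decile of Input TPM instead, 3 did. The members' median EPKM was 0.146 in Input, 0.0624 with PABPC and 0.104 with PABPN, and over PCGs these medians were 0.0273, 0.0501 and 0.0334. The members were also more abundant than most PCGs, with a median TPM of 102 against 15.8 in the Input. Together they made up 0.205% of the TPM summed over listed genes in the Input, 0.511% with PABPC and 0.387% with PABPN. The median PCG was also higher in the IPs than in the Input, by log2 TPM ratios of 0.95 with PABPC and 1.10 with PABPN. A higher share in the IPs was therefore not particular to the members.

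Binding was then described from TPM, as log2 ratios of TPM + 0.5 between fractions, each centred on its median over PCGs (0.95 for PABPC IP over Input, 1.10 for PABPN IP over Input and -0.19 for PABPC IP over PABPN IP). A gene was counted as enriched or depleted beyond 0.5 in either direction. The 3 ratios share their fractions and are not independent of each other. In the PABPC IP over Input, 4 members were enriched, against 9.02% of PCGs, and none was depleted, against 17.4%. These 4 were OAZ1 at 0.64, SRM at 0.63, ODC1 at 0.57 and AMD1 at 0.56, all just past the threshold, and OAZ2 at 0.41, SMS at 0.38, SAT1 at 0.32 and AZIN1 at 0.12 were on the same side of the centre. All 8 members thus lay above the PCG median of this ratio. OAZ1 lay above 97.0% of PCGs and SRM above 96.8%, and AZIN1, the lowest member, lay above 60.8%. Without centring, all 8 members and 80.2% of PCGs passed 0.5.

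In the PABPN IP over Input, the members split. Depletion was seen for 4 (OAZ1 at -0.82, SRM at -0.67, OAZ2 at -0.59 and SMS at -0.51), against 20.6% of PCGs. Enrichment was seen for 2 (SAT1 at 1.36 and ODC1 at 1.22), against 23.7% of PCGs. SMS was no longer past the threshold, at -0.48, with 1 added to TPM in place of 0.5. AZIN1 at -0.42 and AMD1 at 0.20 passed neither threshold. This depletion depends on the centring. Centred on every listed gene, 5 members were depleted, against 24.6% of PCGs, and 2 were enriched, against 20.5%. Without centring the ratios of OAZ1, SRM, OAZ2, SMS and AZIN1 were all above 0, and 6 members and 84.1% of PCGs were enriched and none of the members depleted. ODC1, which starts synthesis, and SAT1, which starts breakdown, thus stood apart from the other members in the same direction, above 95.8% and 97.2% of PCGs, whereas OAZ1 lay above 8.64%.

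**Figure D3:**
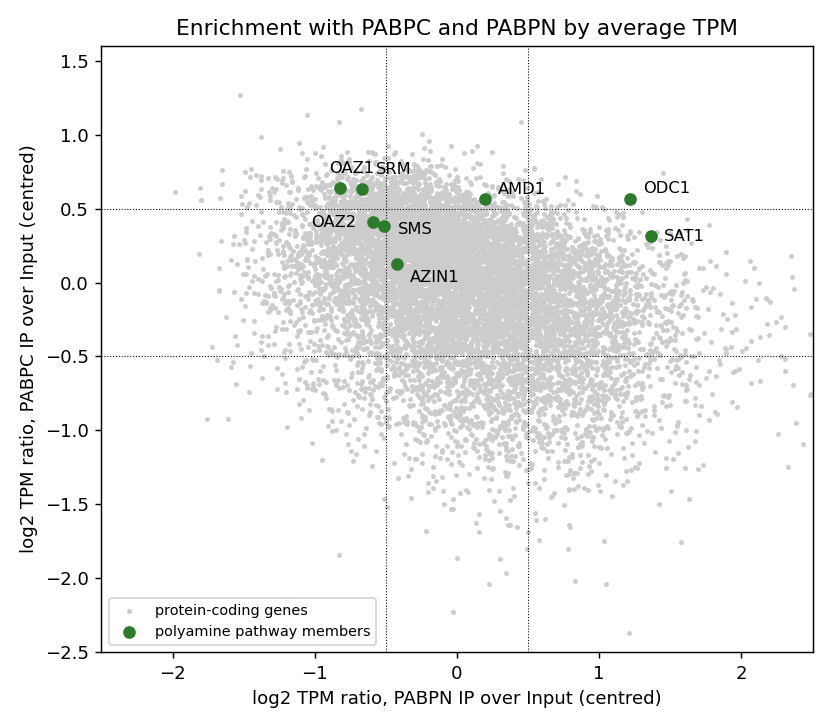
Centred log2 TPM ratio of PABPC IP over Input (vertical axis) against that of PABPN IP over Input (horizontal axis), with PCGs in grey, the 8 members in green and dotted lines at the thresholds of 0.5 and -0.5 on each axis; 50 PCGs lie outside the axes. OAZ1, SRM, OAZ2 and SMS lie left of the lower PABPN threshold with this centring, though not without centring, and ODC1 and SAT1 lie right of the upper one at 1.22 and 1.36.

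Between the IPs, the TPM ratio of PABPC IP over PABPN IP was above 0.5 for 5 members, against 29.9% of PCGs. These were OAZ1 at 1.50, SRM at 1.34, OAZ2 at 1.04, SMS at 0.93 and AZIN1 at 0.58. It was below -0.5 for 2, ODC1 at -0.61 and SAT1 at -1.01, against 31.1% of PCGs, and AMD1 lay between at 0.40. With the ratio centred on every listed gene instead, 6 members were above 0.5, against 40.5% of PCGs, and 1, SAT1, was below -0.5, against 22.8%. Without centring, 4 members were above 0.5, against 22.7% of PCGs, and 2 were below -0.5, against 37.2%, with AZIN1 at 0.40. RNA partition and editing ran in the same direction for some members and not for others. OAZ1 and AMD1 leaned to PABPC by both TPM and EPKM, AMD1 at 0.40 by TPM and 1.22 by log2(EPKM + 0.01), and SAT1 leaned to PABPN by both. SMS leaned to PABPC by TPM while its EPKM was higher in the PABPN IP, at -1.73 on the same log2 scale. OAZ2 and AZIN1 leaned to PABPC by TPM and were about level by EPKM, at -0.18 and -0.15, as was SRM, listed at 0 in both IPs. ODC1 leaned to PABPN by TPM while its editing was listed in the PABPC IP and not in the PABPN IP. With 0.1 added to EPKM in place of 0.01, the log2 difference was 0.56 for AMD1 and -0.85 for SMS, both smaller and of unchanged sign.

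The members also differed in features of their annotated transcripts, taken from the canonical transcript of each gene. An ATG upstream of the coding sequence was present in 6 of 8 members, against 39.6% of the 9601 PCGs matched to a canonical transcript. AZIN1 held 3 of them in a 5′ UTR of 590 bases, which was longer than that of 95.3% of PCGs. OAZ2 and SAT1 held 2 each, and ODC1, AMD1 and SMS held 1 each. OAZ1 and SRM, the 2 members with the highest Input TPM, held none and had the shortest 5′ UTRs of the set, at 79 and 75 bases against a PCG median of 134. The share of cytosines ran from 17.5% in AZIN1 and 17.8% in AMD1 to 26.7% in OAZ1 and 35.2% in SRM, with a PCG median of 23.7%.

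By the 6 values of EPKM and TPM in the 3 fractions, on log2 scales, the PCGs most like OAZ1 were GSTP1 and RPL26, at Euclidean distances of 0.659 and 0.756. The PCGs most like AMD1 were PIK3R2 and CNOT9, at 0.730 and 0.753. ODC1 had no neighbour as close, the nearest being EI24 at 1.11 and MRPL12 at 1.79. The EPKM of EI24 was 0.383 in Input, 0.0661 with PABPC and listed at 0 with PABPN, where its TPM was 1344.

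The wider polyamine list held 34 genes, of which 30 were in the table and 24 passed the TPM filter. EPKM with PABPC exceeded that with PABPN for 17 of the 24, against 56.4% of PCGs, and the reverse held for 6, against 37.4%. The highest EPKM was that of the PABPC IP for 14, against 42.6% of PCGs. EIF5A, the factor that carries the hypusine residue made from spermidine, was the most abundant, with a TPM of 1187 in Input, 3057 with PABPC and 991 with PABPN. Its EPKM was 0.440 in Input, 0.781 with PABPC and 0.247 with PABPN, the same order of fractions as OAZ1. The antizyme and inhibitor relatives OAZ3 and AZIN2 did not pass the TPM filter.

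By centred TPM ratio, 1 gene of the wider list, SAT2 at 0.59, was enriched in the PABPC IP over Input, against 9.02% of PCGs, and MYC at -0.54 and SLC3A2 at -0.86 were depleted, against 17.4%. In the PABPN IP over Input, 10 of the 24 were depleted, against 20.6% of PCGs, and 3 were enriched, against 23.7%. The 3 were MRI1 at 1.24, MAT2A at 0.88 and ATP13A3 at 0.59. The depletion in both ratios depends on the centring, as for the members. The lowest of the 24 were SLC3A2 at -0.86 in the PABPC IP over Input and EIF5A at -1.36 in the PABPN IP over Input. The PCG medians subtracted were 0.95 and 1.10, and without that step no gene of the 24 would lie below -0.5. MAT2A makes S-adenosylmethionine, the substrate of AMD1, and MRI1 acts in the salvage of methionine from the by-product of SRM and SMS. MAT2A had a TPM of 106 in Input, 147 with PABPC and 421 with PABPN, and MRI1 had 71.6, 117 and 365 in the same order. Both were thus richest in the PABPN IP, as ODC1 was. Their EPKM differed, at 0.0439 with PABPC and 0.119 with PABPN for MAT2A, and at 0.215 with PABPC and listed at 0 with PABPN for MRI1.

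**Figure D4:**
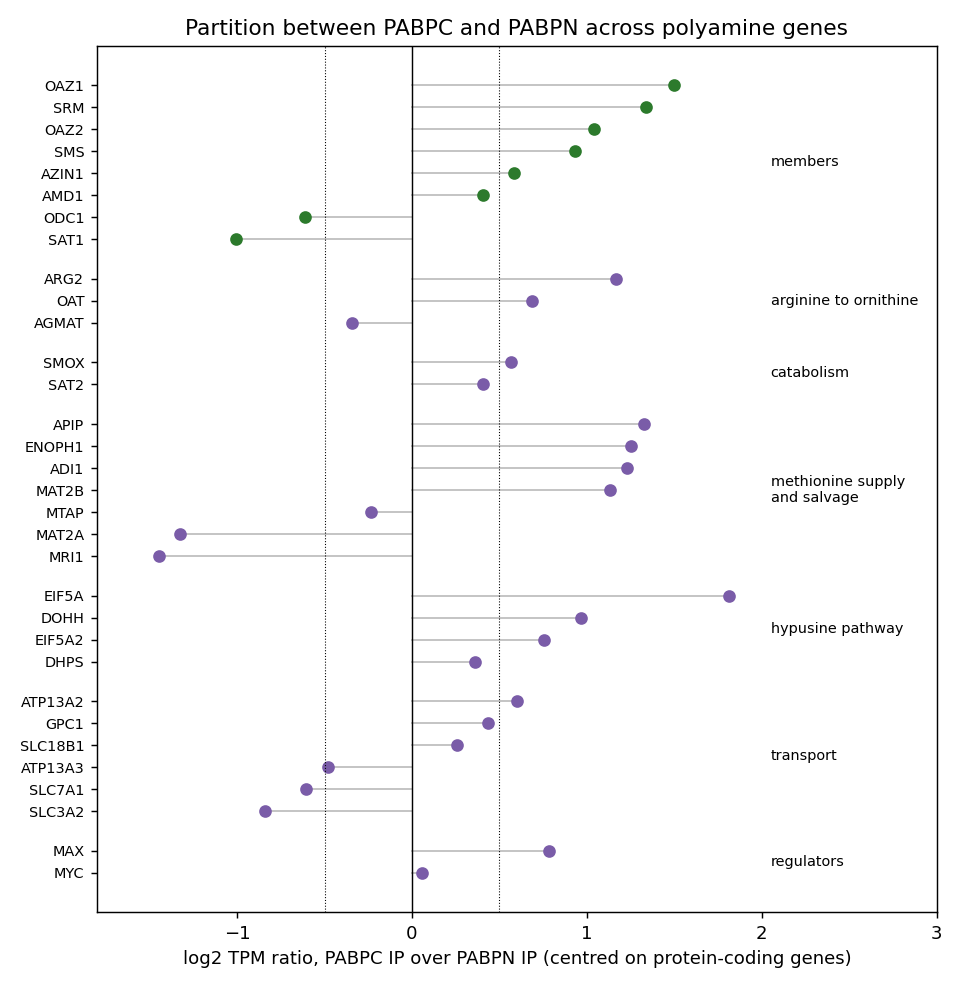
Centred log2 TPM ratio of PABPC IP over PABPN IP (horizontal axis) for the 8 members in green and 24 genes of the wider polyamine list in purple, grouped by role, with dotted lines at 0.5 and -0.5. Values run from -1.45 for MRI1 to 1.81 for EIF5A, and ODC1 and SAT1 are the members below 0.

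The centred PABPC IP over PABPN IP ratio had a median of 0.50 over the wider list, 0.76 over the members and 0 over PCGs by construction. For PABPC IP over Input, the medians were 0.13 over the wider list and 0.49 over the members. By the PABPC IP over PABPN IP ratio, 12 of the 24 genes of the wider list were above 0.5, against 29.9% of PCGs. By the same ratio, 4 (MAT2A, MRI1, SLC3A2 and SLC7A1) were below -0.5, against 31.1%. Other groups of mRNAs with unusual decoding were set beside the members for scale. Of 18 selenoprotein mRNAs, 10 were enriched in the PABPC IP over Input, against 9.02% of PCGs, and 8 were depleted in the PABPN IP over Input, against 20.6%, with EPKM medians of 0.0779 with PABPC and 0.0216 with PABPN. EPKM was highest in the Input for 10 of the 18, against 26.6% of PCGs. Of 8 stress response mRNAs with upstream reading frames, 1 was enriched and 1 was depleted by the same ratios, against the same 9.02% and 20.6% of PCGs, with median EPKM of 0.0819 and 0.0241. The lowest ratio of PABPN IP over Input was -0.94 among the selenoprotein mRNAs and -0.71 among the stress response mRNAs. A PCG median of 1.10 had been subtracted, so these depletions too depend on the centring.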

How the data were processed

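Members and lists were chosen with earlier results of these data known. Per the labels, alignment was to hg38 with STAR, followed by counting in featureCounts 2.0.2. The deposited normalized EPKM is a signal made by the authors by calling C-to-U edits and subtracting the control condition. It is never below 0, and how differences below 0 and replicates were handled is not given in the sources used here. The deposited TPM is the authors' average of exonic plus intronic TPM per fraction, and which samples were averaged is not given either. Total TPM came to 854272 for Input, 995724 for PABPC IP and 975719 for PABPN IP.

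Computed here were shares, medians, percentiles and log2 ratios, with 0.5 added to TPM and 0.01 to EPKM and a threshold of 0.5. Deciles were 10 groups of PCGs of equal size by TPM. No test was run, since all values are pooled. Genes named were the 8 members, cell type markers from a list, genes of the wider list whose TPM reached 5 in each IP, the 2 PCGs nearest to OAZ1, ODC1 and AMD1, and gene copies named after a member. OAZ3 and AZIN2 fall outside this rule and were named after their values were seen, as were genes overlapping a member. Positions, transcripts and sequences came from GENCODE release 44 on hg38. Alternatives changed pseudocounts, centring, thresholds and background genes. The centred TPM ratio of PABPC IP over Input and its threshold were tested on simulated data. EPKM values and the other ratios were not simulated. Python 3.11.15, NumPy 2.4.6, pandas 2.3.3 and matplotlib 3.10.9 were used. Protein sequences, single replicates and nanopore reads were not analysed here.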

Additional observations from a re-analysis of the deposited data

Results flagged for a closer look

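Signal was also listed for genes that share genomic sequence with a member and that the comparisons do not use. SNORA80B, a small nucleolar RNA gene inside ODC1 on the same strand, showed an EPKM of 0.142 with PABPN, was listed at 0 in Input and with PABPC, and had no TPM. ODC1 itself was listed at 0 with PABPN, and whether reads were divided between the 2 genes was not tested. JSRP1, which overlaps OAZ1 on the opposite strand, showed an EPKM of 0.0227 with PABPC, was listed at 0 in the other fractions, and had a TPM of 1.46 there. MAILR, which overlaps AZIN1 on the opposite strand, showed an EPKM of 0.0178 in Input, was listed at 0 in both IPs, and had a TPM of 0.372 in the Input, where AZIN1 was listed at 0. The pseudogene AMD1P3 was listed at 0 in all 3 fractions and had no TPM.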

How the results depend on the processing

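Of 28 alternative values of counts over the members, 18 stayed within 1.5 times the main count. The 3 members with higher EPKM in the PABPC IP became 1 (OAZ1) when a 2-fold difference with 0.1 added was required. In a setting chosen after the data were seen, a 2-fold difference was also required of the 4 with higher EPKM in the PABPN IP. They became 2 (SMS and SAT1) with 0.01 added, against 21.1% of PCGs, and 1 (SAT1) with 0.1 added, against 3.71%. The 5 members above the Input median became 3 within the same TPM decile. Without centring, the 4 members enriched in the PABPC IP over Input became 8, against 80.2% of PCGs, and the 4 depleted in the PABPN IP over Input became 0, against 0.583% of PCGs. Their ratios were then above 0, at 0.59 for SMS, 0.28 for OAZ1, 0.44 for SRM and 0.51 for OAZ2, since the PCG median itself was 1.10. Centring on every listed gene gave 7 members enriched in the PABPC IP, against 24.3% of PCGs. With a threshold of 1, 0 members were enriched in the PABPC IP, against 0.0625% of PCGs, 0 were depleted in the PABPN IP, against 4.61%, and 3 in place of 5 were above it in the PABPC IP over PABPN IP ratio, against 12.3%. Of 80 alternative values for single members, 59 changed by less than 0.5 on the log2 scale. A further 4, those above, were past the threshold and changed sign. The other 17 moved by more than 0.5. Among these 17, AZIN1 in the PABPN IP over Input also changed sign without centring, from -0.42 to 0.68. Of the 59, AZIN1 in the PABPC IP over PABPN IP fell from 0.58 to 0.40 without centring. SMS in the PABPN IP over Input went from -0.51 to -0.48 with 1 added to TPM. Both were then no longer past the threshold. AMD1 in the PABPC IP over PABPN IP, past neither threshold, fell from 0.40 to 0.22 without centring. No paired analysis was possible because the table holds no values per replicate, and leaving out each replicate could not be run for the same reason. The reads and edits behind each value are unknown, so the error of a low EPKM, as of SAT1, cannot be given.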
